A study of Mus musculus with 11 samples.

Results

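The Lgr receptors, the R-spondins that bind them and the feedback genes of canonical Wnt signalling were measured in basal and luminal cells of the pubertal mouse mammary gland. The 10 genes, Lgr4, Lgr5, Lgr6, Rspo1, Rspo3, Znrf3, Rnf43, Axin2, Tcf7 and Lef1, were chosen by name, with earlier results of these data known. They are 10 of the 27179 genes of the deposited count table, and 9 of them passed the filter on low counts. The exception was Rspo3, which is described by its counts alone.

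In canonical Wnt signalling, a Wnt ligand binds Frizzled and Lrp receptors, beta-catenin escapes the destruction complex and, with factors of the TCF/LEF family, activates target genes in the nucleus. The transmembrane ubiquitin ligases Znrf3 and Rnf43 remove Frizzled from the cell surface, and R-spondins bound to Lgr4, Lgr5 or Lgr6 take these ligases away, so that the cell responds more strongly to Wnt. Axin2, a scaffold of the destruction complex, is itself a Wnt target and damps the signal. Lgr5 and Axin2 are known in the mammary gland as labels of basal and other epithelial cells in lineage tracing.

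Terminal end buds (TEBs) are the growing tips of the mammary ducts in puberty. TEBs and ducts were microdissected under GFP fluorescence from female C57BL/6 mice aged 5 weeks that carried E-cadherin-GFP, a fluorescent reporter of the epithelial adhesion protein, and no further allele or treatment was named for any group. Lineage-negative CD29+CD24+ cells were sorted by flow cytometry into luminal cells (Ecad-GFP hi) and basal cells (Ecad-GFP lo), and RNA-seq of the sorted cells gave 3 libraries of basal duct, 3 of basal TEB, 3 of luminal TEB and 2 of luminal duct (replicates 1 and 3). Each library came from at least 2 pooled mice, so no library is an individual animal and the p-values measure the spread between pools. The sort separated cells by the brightness of the reporter and by surface proteins, and cell subtypes within a gate were not resolved.

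Library totals were 27989137 to 49221436 counts, and levels are given as CPM (counts-per-million) after TMM scaling. The summed level of 6 basal markers (Krt5, Krt14, Trp63, Acta2, Myh11 and Oxtr) was 4952 to 17582 CPM in basal and 11.9 to 217 CPM in luminal libraries, and that of 7 luminal markers was 306 to 528 CPM in basal and 8827 to 13996 CPM in luminal libraries, as the labels give. Mitochondrial genes took 37.5% of counts in basal TEB replicate 1 and 28.5% in luminal duct replicate 3, compared with 4.34% to 17.8% in the other libraries. Luminal duct replicate 3 also stood apart from replicate 1 in markers of other cells, with summed levels of 250 against 6.03 CPM for 6 fibroblast markers, of 39.0 against 2.32 CPM for 7 T cell markers and of 217 against 81.8 CPM for the basal markers. The quasi-likelihood test of edgeR was run over the 17370 genes that passed the filter, and a gene was called at a Benjamini-Hochberg adjusted p (FDR) below 0.05. In bulk samples, fewer cells that express a gene and less RNA per cell cannot be told apart.

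RefSeq promoter windows of 250 bases before a transcription start (GRCm38.p6, the build of mm10) were found for 7 of the 10 genes. The sequences of Lgr4 and Rnf43 are shown because these genes were called higher in basal cells in both structures and their windows lie wholly outside the annotated gene, and CG dinucleotides, the sites of DNA methylation, are in capitals. The windows are chr2:109917397-109917646 for Lgr4 and chr11:87662837-87663086 for Rnf43, both on the plus strand.
Lgr4: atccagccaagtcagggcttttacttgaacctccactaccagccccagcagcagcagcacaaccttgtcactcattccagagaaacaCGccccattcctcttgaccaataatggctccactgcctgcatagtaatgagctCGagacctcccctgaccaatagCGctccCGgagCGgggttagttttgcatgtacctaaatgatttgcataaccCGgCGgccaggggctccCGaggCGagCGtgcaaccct
Rnf43: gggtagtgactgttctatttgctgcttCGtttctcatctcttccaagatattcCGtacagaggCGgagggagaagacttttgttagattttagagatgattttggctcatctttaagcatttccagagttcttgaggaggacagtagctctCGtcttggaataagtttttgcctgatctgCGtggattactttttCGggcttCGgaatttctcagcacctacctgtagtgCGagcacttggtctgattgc
The Lgr4 window holds 10 CG dinucleotides and this Rnf43 window holds 8, and a second RefSeq window of Rnf43 holds 2. The median over 32851 windows of this length was 6.0. The single Axin2 window, which lies inside the annotated span of the gene, holds 24, that of Lgr6 holds 16, and the highest number was 37 in a Tcf7 window. The TCF/LEF core motif CTTTGA, searched with its reverse complement TCAAAG, was in 13.8% of all windows. Among the 12 windows of these genes it was in 1, at a start of Lef1, with 2 matches.

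Most of these genes were higher in basal than in luminal cells. In ducts, 7 of the 9 genes tested were called, all higher in basal cells (Lgr4, Lgr5, Lgr6, Znrf3, Rnf43, Axin2 and Tcf7), where 12.6% of all genes were called higher in basal cells and 22.3% were called in either direction. In TEBs, 6 were called, all higher in basal cells (these genes without Lgr5), where 13.2% of all genes were called higher in basal cells and 25.1% in either direction. The median log2 fold change of the 9 genes was 2.88 in ducts and 2.33 in TEBs, compared with 0.08 and 0.04 over all genes tested. Libraries of basal and luminal cells did not overlap for 8 of the 9 in ducts and for 6 in TEBs, where the share over all genes was 46% and 49.8%.

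Between TEBs and ducts, 1 gene was called in each cell type. In basal cells this was Lgr5, lower in TEBs, where 1.32% of all genes were called and 1.16% were called lower. In luminal cells this was Axin2, higher in TEBs, where 1.41% of all genes were called and 0.639% were called higher. The median log2 fold change of the 9 genes was -0.09 in basal and -0.55 in luminal cells, compared with -0.03 and 0.04 over all genes tested. The luminal median is the value of Tcf7, which was 0.38 without luminal duct replicate 3, and Rspo1 and Lef1, with few counts, lie below it. Libraries of TEBs and ducts did not overlap for 4 of the 9 in basal cells, where the share over all genes was 20.8%, and for 5 in luminal cells, where it was 43.7%. Each of the 4 groups enters 2 of these 4 comparisons, so the comparisons share libraries and their values are given side by side.

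**Figure D1:**
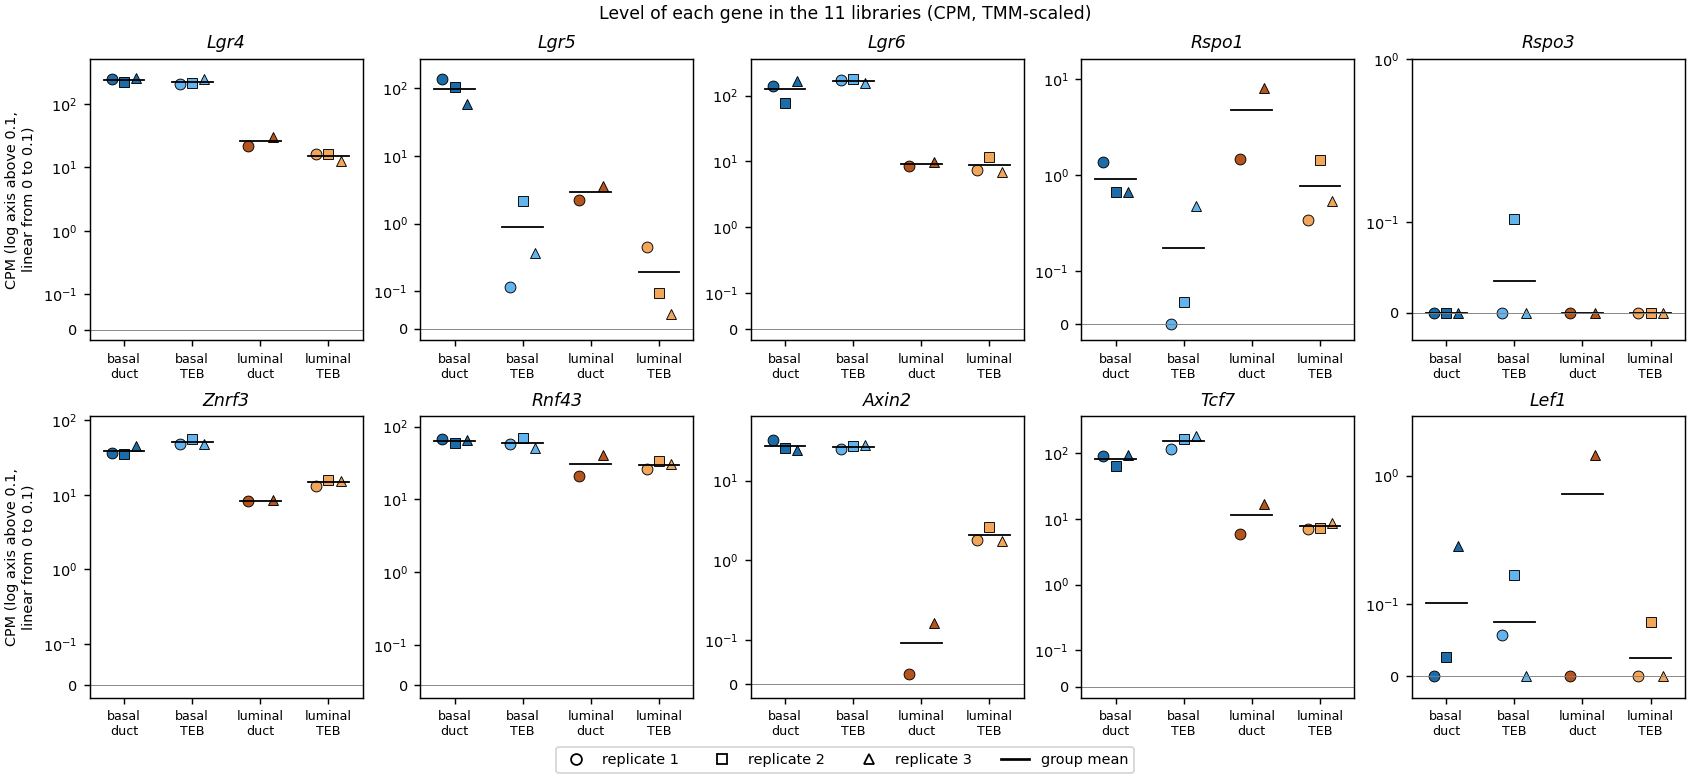
Level of each of the 10 genes in the 11 libraries, in CPM after TMM scaling, on an axis that is logarithmic above 0.1 and linear from 0 to 0.1. Symbols are replicates and lines are group means. Lgr4, Lgr6, Znrf3, Rnf43, Axin2 and Tcf7 lie higher in each basal than in each luminal library, Lgr5 is high in basal duct, and Rspo3 and Lef1 are at or near 0 in most libraries.

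Lgr4 (Entrez 107515, chr2:109917647-110014257) encodes the R-spondin receptor with the broadest expression of the family. It was at 242, 220.4 and 253 CPM in basal duct (replicates 1, 2 and 3, in this order throughout), at 204, 216 and 249.8 CPM in basal TEB, at 21.7 and 30.1 CPM in luminal duct (replicates 1 and 3) and at 15.9, 16.1 and 12.4 CPM in luminal TEB. The basal groups overlapped each other and lay above each luminal library, and luminal duct lay above luminal TEB. Basal cells were higher than luminal cells by a log2 fold change of 3.20 (SE 0.23, FDR 2.92e-06) in ducts and of 3.91 (SE 0.20, FDR 1.64e-07) in TEBs. Between TEBs and ducts Lgr4 was not called, with a log2 fold change of -0.09 (SE 0.18, FDR 0.867) in basal and of -0.80 (SE 0.20, FDR 0.0702) in luminal cells. Without luminal duct replicate 1 the luminal difference was -1.02. With all libraries it was called by the likelihood ratio test (FDR 0.0174) and by the DESeq2 Wald test (FDR 0.00401). The call thus depends on the test and the size on that library, and the FDR ran from 0.00401 to 0.538 over 26 alternatives.

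Lgr6 (Entrez 329252, chr1:134983300-135105374), a further R-spondin receptor, followed the same order of cell types. Its levels were 140.0, 76.6 and 167 CPM in basal duct, 172, 179.5 and 157 CPM in basal TEB, 8.35 and 9.87 CPM in luminal duct and 7.49, 11.8 and 6.88 CPM in luminal TEB. Basal duct replicate 2 was the lowest basal library, and it lay above each luminal library. That library also had the highest summed levels of fibroblast (840 CPM) and endothelial markers (201 CPM) among the basal libraries, and their part in the low value was not tested. The basal excess was 3.81 (log2, SE 0.37, FDR 2.02e-05) in ducts and 4.28 (SE 0.32, FDR 1.75e-06) in TEBs. TEBs and ducts were not separated, with log2 fold changes of 0.41 (SE 0.28, FDR 0.539) in basal and -0.06 (SE 0.32, FDR 0.959) in luminal cells.

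Lgr5 (Entrez 14160, chr10:115450314-115587780), the receptor known as a stem cell marker of the intestine, differed from Lgr4 and Lgr6 in having high levels in a single group. Basal duct held 136, 104 and 57.9 CPM and basal TEB 0.115, 2.17 and 0.364 CPM, from 2, 103 and 13 counts. Luminal duct held 2.21 and 3.58 CPM, and luminal TEB 0.448, 0.0953 and 0.0385 CPM, from 20, 5 and 2 counts. By level, luminal duct therefore came after basal duct and lay narrowly above basal TEB (lowest 2.21 against highest 2.17 CPM), and the TEB groups overlapped each other. In basal cells the log2 fold change of TEB against duct was -6.69 (SE 0.95, FDR 0.00585), and it was called in all 26 alternatives, with an FDR of 5.51e-14 to 0.0485. Of the 6 basal markers, 3 were also called lower in basal TEB than in basal duct and 0 higher. Their summed level was 4952 to 7832 CPM in basal TEB and 14395 to 17582 CPM in basal duct. Whether the Lgr5 difference is part of this wider change was not tested.

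In luminal cells, Lgr5 counts were also fewer in TEBs, 27 in all compared with 184 in ducts, a duct to TEB ratio of 14.9 (95% exact interval of counting error 9.90 to 23.2). The log2 fold change was -3.92 (SE 0.97) and missed the threshold, with an FDR of 0.0727. The call depends on single libraries, on the filter and on the test. Without basal TEB replicate 1 or 2 the FDR was 0.0427 or 0.0346, and without luminal duct replicate 1 the log2 fold change was -4.24. With all libraries, Lgr5 was called without a filter (FDR 0.0328), by the likelihood ratio test (0.00491) and by the DESeq2 Wald test (0.00135). The FDR ran from 0.00135 to 0.243 over 26 alternatives. Luminal duct was at 2.92% of the basal duct mean for Lgr5, near the 6 basal markers (0.389% to 2.37%). Of these 6 markers, 5 were also called lower in luminal TEB than in luminal duct. The part of basal cells in the luminal Lgr5 counts was not tested. The difference between the basal and the luminal change was -2.78 (SE 1.30, FDR 0.347) and was not called. Fold changes between cell types were 5.11 (log2, SE 1.05, FDR 0.00412) in ducts and 2.33 (SE 0.92, FDR 0.0876) in TEBs, and the latter was called without basal TEB replicate 1 (2.77, FDR 0.0381) or without luminal TEB replicate 1 (3.79, FDR 0.0331), in an FDR range of 0.0298 to 0.740 over 26 alternatives. Lgr5 overlaps the gene A930009A15Rik, which had 179 counts over all libraries, and the library kit did not mark strand.

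Per kb of exonic length, the 3 Lgr receptors summed to 115, 86.7 and 108 CPM per kb in basal duct and to 87.9, 92.8 and 92.7 CPM per kb in basal TEB, so the ranges overlapped. The sums were 7.07 and 9.43 CPM per kb in luminal duct and 5.31, 6.47 and 4.37 CPM per kb in luminal TEB, so each luminal TEB library was below both luminal duct libraries. As mean ± SD over the libraries of a group (n = 3, and n = 2 for luminal duct), Lgr5 made up 20.6% ± 7.99 of the family in basal duct, where its level was high, and only 0.203% ± 0.256 in basal TEB. Its share in luminal cells was 7.34% ± 1.01 for ducts and 0.764% ± 0.892 for TEBs. Lgr4 held 46.0% ± 4.36 of the family in basal duct, 48.4% ± 4.22 in basal TEB, 61.9% ± 1.63 in luminal duct and 55.0% ± 5.14 in luminal TEB. For Lgr6 the shares were 33.5% ± 9.05, 51.4% ± 4.13, 30.7% ± 2.64 and 44.3% ± 5.78, with groups listed as for Lgr4. Lgr4 and Lgr6 were thus the main receptors by mean reads per kb in each group, and these shares were not tested.

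**Figure D2:**
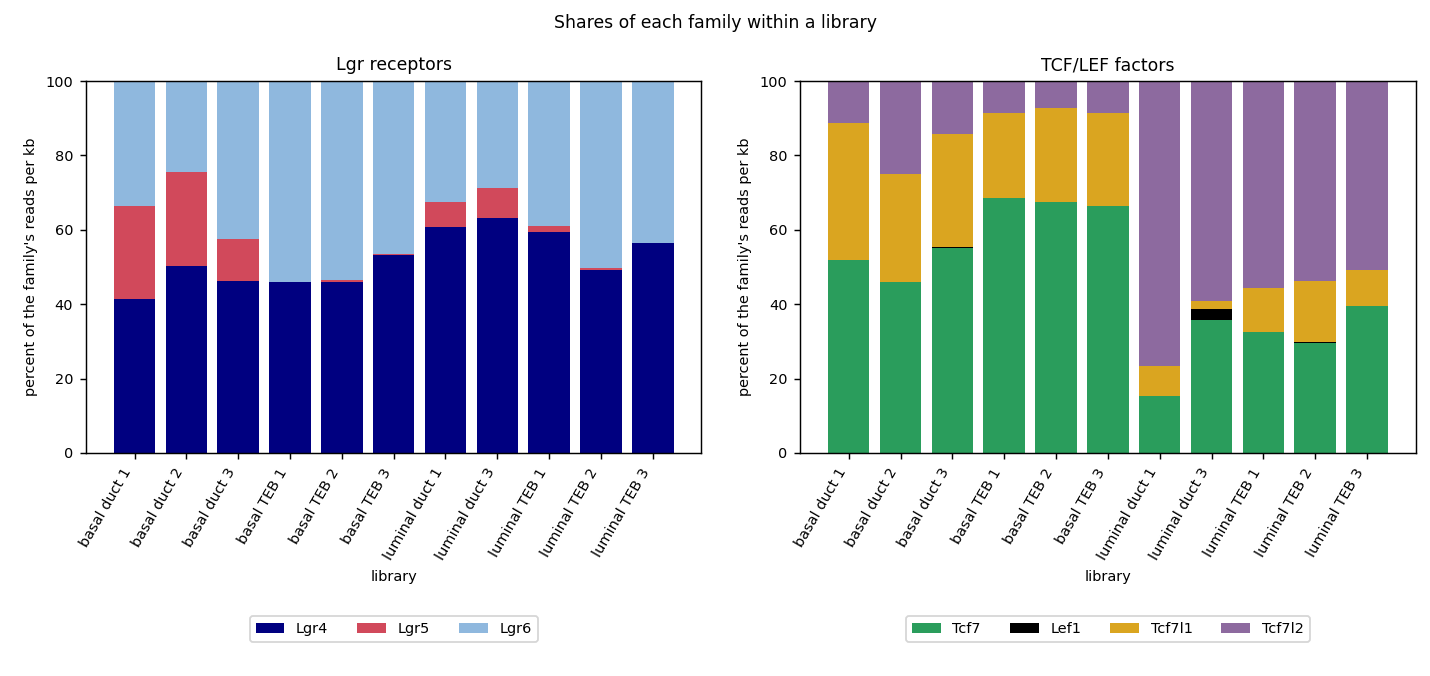
Share of each gene among the Lgr receptors (left) and the TCF/LEF factors (right) in each library, as percent of the CPM per kb of the family. Lgr5 fills 11.3% to 25.4% in basal duct libraries and at most 0.496% in basal TEB libraries, and Tcf7l2 fills over 50% in each luminal library and at most 25.0% in each basal library.

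R-spondins, the ligands of these receptors, had few counts. Rspo1 (Entrez 192199, chr4:124986401-125009102) had 68, 25 and 26 counts in basal duct, 0, 2 and 17 in basal TEB, 64 and 195 in luminal duct and 15, 75 and 28 in luminal TEB. These counts correspond to 1.36, 0.658 and 0.667 CPM in basal duct, at most 0.476 CPM in basal TEB, 1.46 and 8.02 CPM in luminal duct, and 0.336, 1.43 and 0.539 CPM in luminal TEB. Luminal duct lay above the other groups, but only narrowly (lowest 1.46 CPM against highest 1.43 CPM in luminal TEB). The luminal duct level rested largely on replicate 3, the library with more fibroblast and T cell markers, and their part in the Rspo1 level was not tested. None of the 4 comparisons was called by the edgeR test, none had an unadjusted p under 0.05, and none was called in any alternative, DESeq2 and limma included. The log2 fold changes of TEB against duct were -2.32 (SE 1.51, FDR 0.515) in basal and -2.62 (SE 1.60, FDR 0.426) in luminal cells, and those of basal against luminal cells were -2.40 (SE 1.59, FDR 0.305) in ducts and -2.10 (SE 1.49, FDR 0.344) in TEBs.

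Rspo3 (Entrez 72780, chr10:29453106-29535867) had 5 counts in basal TEB replicate 2 and 0 in the other 10 libraries. Of the other R-spondins, Rspo2 had 18 counts in basal TEB replicate 2, 2 in luminal duct replicate 1 and 0 elsewhere, and Rspo4 had 7 counts in luminal TEB replicate 2 and 0 elsewhere. A count of 0 allows up to 3 counts, or 0.0572 to 0.173 CPM depending on the library, and this limit covers counting error only. Rspo2, Rspo3 and Rspo4 thus had no reads in most libraries of sorted epithelial cells, and other cells of the gland were not measured here.

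Znrf3 (Entrez 407821, chr11:5276329-5444847) and Rnf43 (Entrez 207742, chr11:87663087-87735539) encode the ligases that R-spondins take from the membrane, and both genes are themselves Wnt targets. Znrf3 was at 36.8, 35.4 and 45.5 CPM in basal duct, 48.4, 56.2 and 47.4 CPM in basal TEB, 8.15 and 8.47 CPM in luminal duct and 13.1, 15.7 and 15.1 CPM in luminal TEB. The 4 groups did not overlap, and TEB lay above duct in each cell type. The cell type differences were called, at 2.24 (log2, SE 0.25, FDR 6.14e-05) in ducts and 1.79 (SE 0.21, FDR 6.34e-05) in TEBs. The TEB against duct values were 0.37 (SE 0.21, FDR 0.437) in basal and 0.82 (SE 0.24, FDR 0.115) in luminal cells, and neither was called. The luminal FDR ran from 0.0375 to 0.558 over 26 alternatives.

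Rnf43 had the smallest basal excess among the called genes. Its levels were 66.9, 58.9 and 65.9 CPM in basal duct, 57.4, 69.0 and 50.9 CPM in basal TEB, 20.9 and 40.3 CPM in luminal duct and 26.4, 33.4 and 30.5 CPM in luminal TEB. TEB and duct overlapped in both cell types, and each basal library lay above each luminal library. The log2 fold change of basal against luminal cells was 1.06 (SE 0.28, FDR 0.0162) in ducts and 0.97 (SE 0.24, FDR 0.0109) in TEBs. The former was not called without luminal duct replicate 1 (0.67, FDR 0.0958) and the latter was not called without luminal TEB replicate 1 (0.89, FDR 0.0585), in FDR ranges of 0.00146 to 0.0958 and 0.000305 to 0.227 over 26 alternatives each. Between TEBs and ducts the log2 fold change was -0.11 (SE 0.24, FDR 0.888) in basal and -0.02 (SE 0.27, FDR 0.995) in luminal cells. Per kb, the share of Rnf43 in the ligase pair was lowest in basal TEB, at 62.9% ± 1.64 (SD, n = 3), and highest in luminal duct, at 83.2% ± 5.99 (SD, n = 2), so it exceeded Znrf3 in each group.

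Axin2 (Entrez 12006, chr11:108917828-108950783), the feedback scaffold used as a readout of Wnt signalling, was high in both basal groups and low in luminal cells. It was at 31.8, 25.8 and 23.9 CPM in basal duct and at 24.8, 27.1 and 28.2 CPM in basal TEB, which overlapped, with a log2 fold change of -0.03 (SE 0.40, FDR 0.998). In luminal duct it was nearly absent, with 1 and 4 counts (0.0228 and 0.164 CPM), and in luminal TEB it had 81, 138 and 91 counts (1.82, 2.63 and 1.75 CPM). The luminal TEB libraries lay above both luminal duct libraries and below each basal library. The log2 fold change in luminal cells was 4.63 (SE 0.65, FDR 0.0095) for TEB against duct, and the ratio of summed counts was 28.4 (95% exact interval of counting error 12.0 to 88.1). Basal cells exceeded luminal cells by 8.35 (log2, SE 0.72, FDR 8.90e-06) in ducts, where the count ratio was 377 (161 to 1162), and by 3.69 (SE 0.45, FDR 7.15e-05) in TEBs.

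The size of the luminal Axin2 difference depended on which luminal duct library was kept. It was 6.33 without replicate 3, which has the higher mitochondrial share, and 3.63 without replicate 1, and it was called each time. Over 26 alternatives the log2 fold change ran from 3.63 to 6.36 and the FDR from 1.73e-09 to 0.225, and the call was lost with limma voom (0.0774), with limma voom and quality weights (0.225) and with the luminal libraries fitted alone (0.0978). The change in basal cells minus that in luminal cells was -4.66 (log2, SE 0.75, FDR 0.0253), where 0.443% of all genes were called. This difference was also negative in all 25 alternatives, from -6.35 to -3.65, with an FDR of 5.29e-07 to 0.332. Without luminal duct replicate 3 or 1 it was -6.35 or -3.65. It missed the threshold without basal duct replicate 1 (FDR 0.0848), basal TEB replicate 3 (0.0778) or luminal TEB replicate 1 (0.0627), 2 (0.0660) or 3 (0.0630).

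Basal markers were also measured in the luminal libraries. Their summed level was 81.8 and 217 CPM in luminal duct and 24.5, 20.8 and 11.9 CPM in luminal TEB, and 5 of the 6 were called lower in luminal TEB, where Axin2 was higher. Within luminal duct, replicate 3 was above replicate 1 in both the summed basal markers and Axin2. Among the basal markers only Trp63 went the other way, at 0.0439% of the basal duct mean in replicate 3 and 0.734% in replicate 1. The part of basal cells in the luminal Axin2 values was not tested. Relative to the basal mean of the same structure, Axin2 was at 0.344% in luminal duct and 7.73% in luminal TEB, while the 6 basal markers were at 0.389% to 2.37% in luminal duct and 0.221% to 2.07% in luminal TEB. The basal levels under these percentages differ between structures for the markers, with sums of 14395 to 17582 CPM in basal duct and 4952 to 7832 CPM in basal TEB. For Axin2 the basal means were 27.2 and 26.7 CPM. Lgr4, Lgr6 and Tcf7 were at 10.9%, 7.13% and 13.7% in luminal duct and at 6.64%, 5.15% and 5.03% in luminal TEB. Znrf3 was at 21.2% and 28.9%, and Rnf43 at 47.9% and 50.9%, in the same order. Lgr5 was at 2.92% in luminal duct and, relative to a basal TEB mean of only 0.883 CPM, at 22.0% in luminal TEB. The summed level of 6 proliferation genes was also higher in luminal TEB (1057 to 1199.9 CPM) than in luminal duct (479 to 499 CPM), and its part in the Axin2 difference was not tested.

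**Figure D3:**
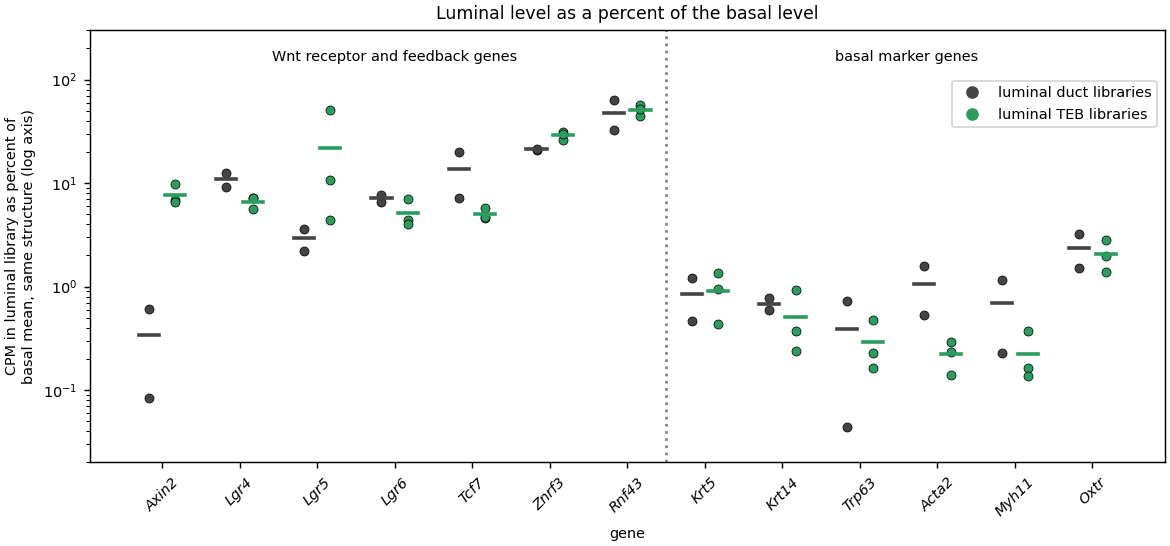
CPM of each luminal library as percent of the mean basal CPM of the same structure, on a logarithmic axis, for 7 Wnt genes and 6 basal marker genes, with lines at the group means. Axin2 lies at 0.0837% and 0.605% in the luminal duct libraries and between 6.56% and 9.84% in the luminal TEB libraries. The luminal TEB percentages of Lgr5 are relative to a basal TEB mean of only 0.883 CPM.

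Tcf7 (Entrez 21414, chr11:52246527-52283383) encodes the TCF1 factor of the nuclear end of the pathway. It was at 90.7, 63.4 and 95.9 CPM in basal duct, 115, 164 and 183 CPM in basal TEB, 5.94 and 16.8 CPM in luminal duct and 7.15, 7.30 and 8.78 CPM in luminal TEB. Each basal TEB library lay above each basal duct library, and the luminal groups overlapped. Basal cells were higher by 2.88 (log2, SE 0.41, FDR 0.000332) in ducts and by 4.31 (SE 0.37, FDR 5.26e-06) in TEBs. In basal cells TEB against duct was 0.89 (SE 0.33, FDR 0.247), which was not called, in an FDR range of 0.0158 to 0.782 over 26 alternatives. The value in luminal cells was -0.55 (SE 0.37, FDR 0.469). Without luminal duct replicate 3 its direction turned, to 0.38 (FDR 0.741), and the change in basal minus that in luminal cells was 0.50 (FDR 0.617). Without luminal duct replicate 1, the luminal difference was called at -1.12 (FDR 0.0463, in a range of 0.0463 to 0.993), and so was the difference between cell types, at 2.00 (FDR 0.0150, in a range of 0.0150 to 0.628) compared with 1.43 (SE 0.49, FDR 0.216) with all libraries. The annotated span of Tcf7 overlaps that of Skp1, which had 104065 counts over all libraries compared with 28827 for Tcf7. Whether their exons overlap, and whether this affected the Tcf7 counts, was not tested.

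Lef1 (Entrez 16842, chr3:131110297-131224357), the LEF factor and a marker of T cells among others, had 0, 1 and 11 counts in basal duct, 1, 8 and 0 in basal TEB, 0 and 35 in luminal duct and 0, 4 and 0 in luminal TEB. The 35 counts (1.44 CPM) were in luminal duct replicate 3, the library with the highest T cell markers, in which 35 counts exceeded all other libraries together. Of the 7 T cell markers in that library, only Cd3e was at 0 and Cd3d was at 5.22 CPM, and the part of T cells was not tested. No comparison was called for Lef1, and no fold change is given at these counts.

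The other factors of the family, Tcf7l1 and Tcf7l2, set Tcf7 in context. Tcf7l1, a factor known mainly as a repressor, had mean levels (± SD, n = 3, and n = 2 for luminal duct) of 65.1 ± 15.1 CPM in basal duct, 69.9 ± 19.7 CPM in basal TEB, 2.67 ± 1.92 CPM in luminal duct and 3.67 ± 1.24 CPM in luminal TEB. It was called higher in basal cells in both structures, by 4.58 (log2, SE 0.53, FDR 7.44e-05) and 4.25 (SE 0.44, FDR 2.11e-05). Tcf7l2 was at 53.4 ± 15.5, 37.7 ± 9.50, 58.7 ± 3.05 and 25.0 ± 2.07 CPM, with groups and n listed as for Tcf7l1, and was called in none of these comparisons. Its luminal log2 fold change of TEB against duct was -1.23 (SE 0.27, FDR 0.0517), and the FDR was below the threshold in 11 of 26 alternatives, in a range of 0.00255 to 0.315, among them those without basal duct replicate 2 (0.0333) or basal TEB replicate 1 (0.0352). Per kb, the share of Tcf7 in the family was 51.1% ± 4.63 (± SD, n = 3) in basal duct and 67.5% ± 1.12 in basal TEB. The share of Tcf7l2 in luminal cells was 67.8% ± 12.3 for ducts (n = 2) and 53.4% ± 2.53 for TEBs (n = 3).

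**Figure D4:**
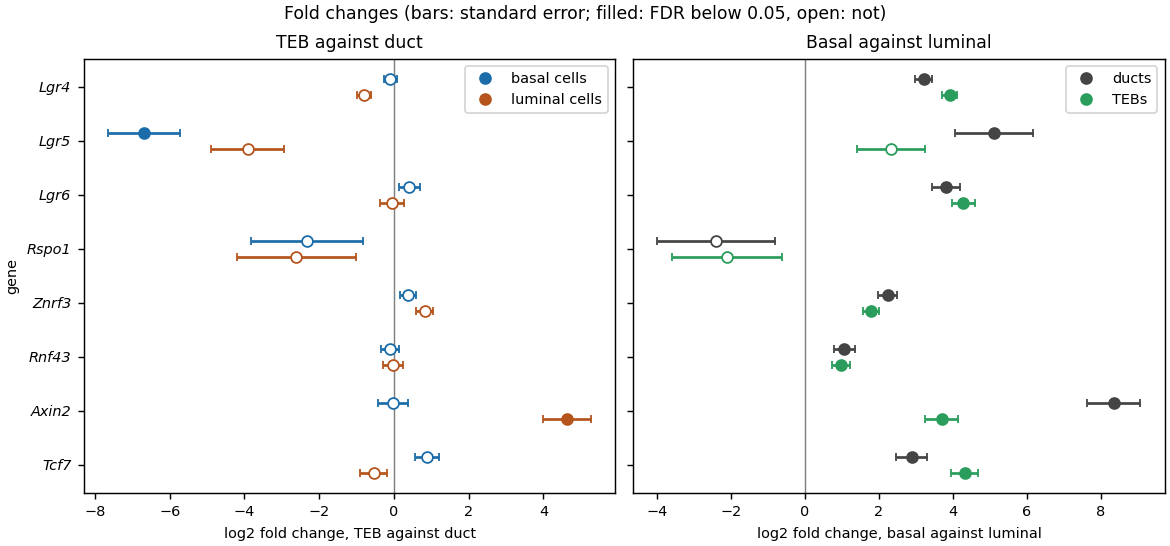
Log2 fold changes of the 8 genes with enough counts, for TEB against duct (left) and basal against luminal cells (right), with bars of 1 standard error and filled points at an FDR below 0.05. Filled points between TEBs and ducts are Lgr5 in basal cells (-6.69) and Axin2 in luminal cells (4.63), and those between cell types all lie on the basal side.

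Of 44 other genes of the pathway, 39 passed the filter. Between cell types, 19 were called in ducts, of which 14 were higher in basal cells, and 17 were called in TEBs, with 13 on the basal side. Over all genes tested, the shares called were 22.3% in ducts and 25.1% in TEBs, with 12.6% and 13.2% called higher in basal cells. Between TEBs and ducts, 1 was called in each cell type, Ccnd1 in basal and Pygo1 in luminal cells, both higher in TEBs, where 1.32% and 1.41% of all genes were called. The luminal count was the least stable, at 0 to 12 over the alternatives, and it was 8 without luminal duct replicate 1, 6 without basal TEB replicate 1, 3 without basal duct replicate 2, 2 without luminal duct replicate 3 and 0 without any of the luminal TEB libraries. Among 7 genes tested on the receptor side, 3 were higher and 1 lower in basal cells in ducts, and 2 higher and 1 lower in TEBs. Among the 11 of the destruction complex, 1 was higher and 1 lower in ducts, and 1 was lower in TEBs, which is no more than the shares called over all genes. Among the 11 nuclear factors, 3 were higher and 1 lower in ducts, and 5 higher in TEBs. Among the 10 targets and feedback genes, 7 were higher and 2 lower in basal cells in ducts, and 6 higher and 2 lower in TEBs.

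Feedback inhibitors were among the targets with the widest basal excess. Nkd2, which antagonises Dishevelled, was at 43.8, 37.2 and 29.8 CPM in basal duct, 26.1, 33.4 and 26.0 CPM in basal TEB, 0.615 and 0.0411 CPM in luminal duct and 1.37, 1.73 and 1.56 CPM in luminal TEB. It was called higher in basal cells, by 6.68 (log2, SE 0.76, FDR 6.04e-05) in ducts and 4.19 (SE 0.55, FDR 0.000127) in TEBs. Its paralog Nkd1 was at 50.9 to 105 CPM in basal duct and 21.5 to 39.2 CPM in basal TEB, and luminal libraries had 0 and 3 counts in ducts and 16, 11 and 2 counts in TEBs. It was called in the same comparisons of cell types. For Nkd2, luminal TEB libraries lay above luminal duct libraries as for Axin2, but the log2 fold change of 2.12 (SE 0.63, FDR 0.12) was not called, in an FDR range of 0.00236 to 0.538 over 26 alternatives, and without luminal duct replicate 1 it was called at 5.14 (FDR 0.00236). Apcdd1, an inhibitor at the membrane singled out after its values were seen, had 63 and 1 counts in luminal duct and 384, 170 and 242 in luminal TEB, with a log2 fold change of 2.87 (SE 1.15, FDR 0.237) that was not called, in an FDR range of 0.0130 to 0.497, and without luminal duct replicate 1 it was called at 6.96 (FDR 0.0130). The mean level of Apcdd1 was 6.79 CPM in basal duct and 0.738 CPM in luminal duct. In TEBs it was 4.90 CPM in basal and 5.50 CPM in luminal cells, so Apcdd1 had no basal excess there. Bambi, a pseudoreceptor that also modulates BMP signalling, was called higher in basal cells by 3.37 (SE 0.37, FDR 5.21e-05) in ducts and 4.30 (SE 0.33, FDR 2.23e-06) in TEBs. Within luminal cells Bambi lay the opposite way to Nkd2, at 4.48 to 8.19 CPM in ducts and 1.98 to 3.33 CPM in TEBs, and was not called. Luminal TEB and luminal duct libraries did not overlap for 43.7% of all genes.

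Other targets moved in either direction. Ccnd1, which encodes the G1 cyclin D1, was at 46.5, 62.9 and 77.8 CPM in basal duct and 264, 169 and 188 CPM in basal TEB, and was called higher in basal TEB by 1.73 (log2, SE 0.23, FDR 0.00374). It was higher still in luminal cells, at 440.4 and 495 CPM in ducts and 894, 920.1 and 919.5 CPM in TEBs, so that basal against luminal was -2.91 (SE 0.25, FDR 8.72e-06) in ducts and -2.14 (SE 0.23, FDR 2.83e-05) in TEBs. Myc was at 427, 514 and 319 CPM in basal duct and 176, 218 and 230.3 CPM in basal TEB, which did not overlap, with a log2 fold change of -1.01 (SE 0.24, FDR 0.0758) that was not called, in an FDR range of 0.00229 to 0.539 over 26 alternatives, and without basal duct replicate 3 it was called at -1.18 (FDR 0.0473). Myc was called higher in basal cells by 2.43 (SE 0.30, FDR 0.000104) in ducts and 1.47 (SE 0.25, FDR 0.000803) in TEBs. Cd44, a cell surface receptor of hyaluronan, was higher in basal cells by 2.16 (SE 0.24, FDR 4.81e-05) and 1.76 (SE 0.20, FDR 4.42e-05), and the ephrin receptor Ephb3 by 1.29 (SE 0.22, FDR 0.00125) and 1.75 (SE 0.20, FDR 4.14e-05), in ducts and TEBs. Sox9, a transcription factor of luminal progenitors among other cells, was lower in basal cells, by -2.34 (SE 0.24, FDR 3.10e-05) and -3.24 (SE 0.24, FDR 1.48e-06). Procr, a receptor of protein C, had 0 counts in both luminal duct libraries and 3.07, 32.6 and 4.21 CPM in basal duct, and was called in ducts. Basal duct replicate 2, which held the highest value, also had the highest summed endothelial markers (201 CPM, compared with 12.0 and 20.7 CPM in replicates 1 and 3), and their part in the Procr value was not tested. Procr was called without that library too (FDR 0.0105), and the FDR ran from 3.03e-08 to 0.0646 over 26 alternatives.

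**Figure D5:**
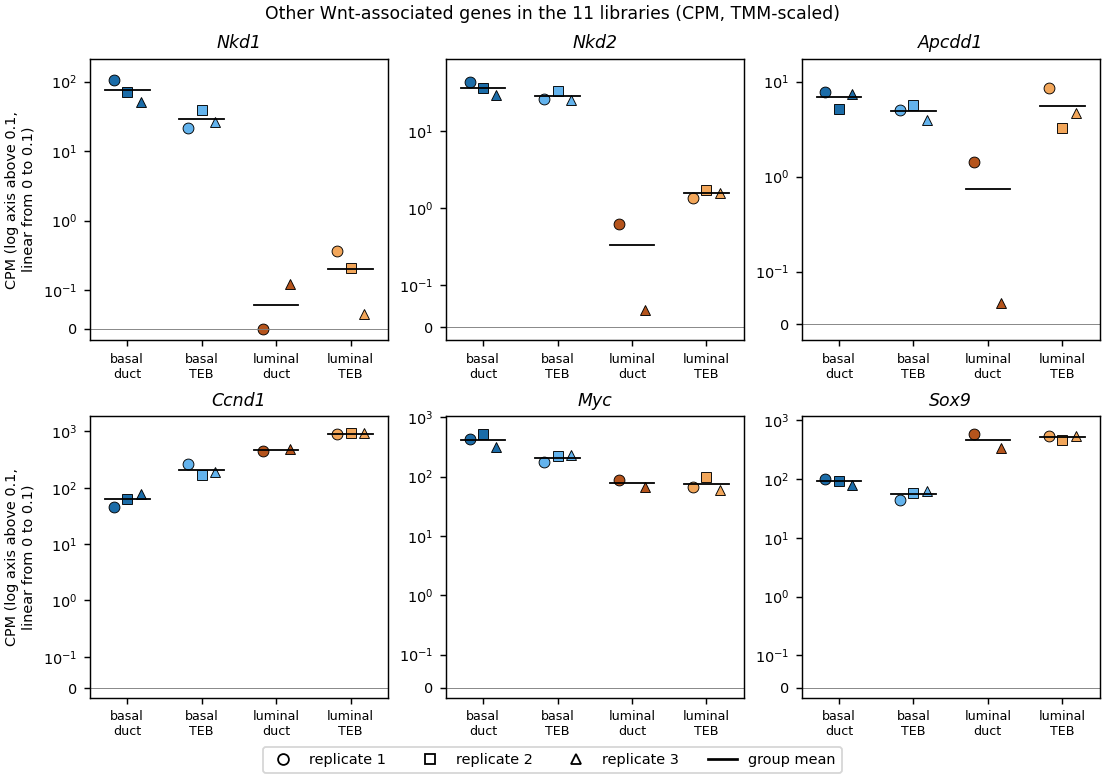
Level of 6 other Wnt-associated genes in the 11 libraries, in CPM after TMM scaling, on an axis that is logarithmic above 0.1 and linear from 0 to 0.1, with lines at the group means. Nkd1 and Nkd2 are low in luminal cells, and Ccnd1 and Sox9 are high there.

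Signal transducers and nuclear factors were called in both directions. Dvl2 was called higher and Dvl1 lower in basal cells, both encoding Dishevelled proteins that carry the signal from the receptors, with log2 fold changes of 1.92 (SE 0.28, FDR 0.000401) and -1.30 (SE 0.21, FDR 0.000768) in ducts and of 1.08 (SE 0.24, FDR 0.00523) and -0.84 (SE 0.19, FDR 0.00669) in TEBs. Apc, the scaffold of the destruction complex, was lower in basal cells by -2.27 (SE 0.42, FDR 0.0019) in ducts and -1.34 (SE 0.38, FDR 0.0215) in TEBs, with luminal duct libraries at 811 and 247 CPM that differed widely. In TEBs the Apc call was lost without basal TEB replicate 1 (FDR 0.0640), basal TEB replicate 3 (0.0878) or luminal TEB replicate 1 (0.106), in a range of 0.00185 to 0.106 over 26 alternatives. Tle4, a corepressor of the TCF/LEF factors, was higher in basal cells by 1.93 (SE 0.30, FDR 0.000582) and 2.12 (SE 0.26, FDR 7.41e-05). Pygo1, a coactivator of beta-catenin, had 0 counts in both luminal duct libraries, 0.695, 1.28 and 0.655 CPM in luminal TEB, and 3.84 to 15.6 CPM in basal cells. It was called higher in luminal TEB than in luminal duct (FDR 0.0258) and higher in basal cells in both structures. The luminal call was lost without luminal TEB replicate 1 (FDR 0.0697), 2 (0.0702) or 3 (0.0759) or luminal duct replicate 3 (0.0590), and the FDR ran from 0.000104 to 0.215 over 26 alternatives, of which 16 kept the call.

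By likeness of log2 CPM over the 11 libraries, the genes nearest to Lgr4 were Mcam (Pearson r = 0.997), Sema3c and Col16a1, and those nearest to Lgr6 were Fbln2 (r = 0.996), Plcg1 and Ugt1a6a. Nedd9 (r = 0.971), Matn4 and Hspa2 were nearest to Lgr5, and Xrcc5 (r = 0.980) and Abat to Axin2. Serpinf1 (r = 0.994), Ccnd2 and Slc25a42 were nearest to Tcf7. For Znrf3 and Rnf43 the nearest genes were Tm7sf3 (r = 0.993) and Sh3pxd2a (r = 0.989), and for Rspo1 and Lef1 they were Trmt1l (r = 0.964) and Zfp780b (r = 0.931), which rest on few counts. The libraries fall into 4 groups, so these values describe the order of the groups, and r is given without a test.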

How the data were processed

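RNA-seq was done on sorted basal and luminal cells of microdissected TEBs and ducts, in 11 libraries made from about 10 ng of RNA with a TruSeq RNA v2 kit, which does not mark strand. Paired-end reads of 80 bases were mapped by the authors with Rsubread to the mm10 genome, and the deposited values are raw read counts per Entrez gene from featureCounts with inbuilt RefSeq annotation (versions not given in the sources used here). Another luminal duct library had too few cells and was set aside by the authors. Symbols, coordinates and promoter windows were taken from RefSeq tables (GRCm38.p6), and 93.0% of identifiers had a symbol.

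From the counts, R 4.3.3 and edgeR 4.0.16 were used with filterByExpr (minimum count 10, minimum total 15), TMM scaling and the quasi-likelihood test on 1 model over 4 groups, with Benjamini-Hochberg adjustment over 17370 genes and an FDR of 0.05. The paper names estimateDisp and glmFit of edgeR, and the quasi-likelihood test was chosen here. Standard errors were obtained as |log2 fold change| over the root of F. The common biological coefficient of variation was 0.704, and totals of 27989137 to 49221436 counts set the counting error. Intervals of count ratios are exact binomial and cover counting error only. Levels per kb use the deposited exonic length.

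The 10 genes are all reported. Other pathway genes came from lists of 44 genes written from general knowledge, and those called in at least 1 comparison of groups are named, at most 15 by lowest FDR, with Tcf7l1, Tcf7l2, Rspo2 and Rspo4. For likeness, the 3 genes with the highest r among genes with a symbol and an average log2 CPM of 1 or more were taken, with a prior count of 2, and 1 of these genes is not reported here. Genes and lists were chosen with earlier results of these data known.

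Alternatives were DESeq2 1.42.0 size factors, upper-quartile scaling, no composition normalization, no filter, genes filtered at 1 CPM on average, the DESeq2 Wald test, the likelihood ratio test of edgeR, limma 3.58.1 voom without and with quality weights, a fit of the compared groups alone, the replicate number as a block, removal of mitochondrial genes, the 2 libraries with most mitochondrial counts left out, a fold-change threshold of 1.5, an FDR of 0.01 and each library left out in turn. No pair of libraries was a repeat of the same counts. Scripts were tested on simulated counts with a smaller spread between libraries than in these data, so this checks the code and not the error rates here.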

Additional observations from a re-analysis of the deposited data

Results flagged for a closer look

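Axin2 differed between the cell types in its change from ducts to TEBs. The basal change minus the luminal change was -4.66 (log2, SE 0.75), with an adjusted p of 0.0253 in edgeR's quasi-likelihood test of the interaction, in a range of 5.29e-07 to 0.332 over 25 alternatives. All 3 luminal TEB libraries (1.75 to 2.63 CPM) were above both luminal duct libraries (0.0228 and 0.164 CPM), while basal TEB (24.8 to 28.2 CPM) and basal duct (23.9 to 31.8 CPM) overlapped. The luminal duct value rests on 5 counts in 2 libraries. The call was lost in 10 of the 25 alternatives, among them the fit with the replicate number as a block (FDR 0.0628). The sign was the same in each of the 25.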

How the results depend on the processing

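Of 64 fold changes given in the text, recomputed under 25 or 26 alternatives each, 1573 of 1661 values kept their direction and their side of the threshold, 28 lost the call, 41 gained it and 19 changed sign. The number of genes called of the 9 stayed at 6 or 7 between cell types in ducts and at 5 to 7 in TEBs.

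In basal cells the number called between TEBs and ducts was 1, and 2 (Lgr5 and Tcf7) with limma voom, with limma voom and quality weights and without the 2 libraries with most mitochondrial counts, and 1 without each library in turn. In luminal cells it was 1, and 2 without a filter, 3 with the likelihood ratio test, 4 with the DESeq2 Wald test, 0 with limma voom, 0 with limma voom and quality weights, 0 with the compared groups alone, and 1 to 4 without each library in turn. For the difference between cell types it was 1, and 0 without composition normalization, with limma voom, with limma voom and quality weights, with the replicate block and at an FDR of 0.01, and 0 to 2 without each library in turn. The cause of these shifts was not tested.

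Changes of sign came only in values with a log2 size below 0.6 that were not called with all libraries and the settings of the report. Without composition normalization, luminal TEB against duct was 0.34 for Lgr6 and 0.41 for Rnf43, a scaling that moved the median of all genes there from 0.04 to 0.42, so that neither was above it. That scaling moved the median from -0.03 to -0.16 in basal cells, from 0.08 to 0.19 in ducts and from 0.04 to -0.35 in TEBs, and, among calls between cell types in TEBs, the basal-high share from 52.8% to 37.2%. With limma voom the luminal value of Rnf43 was 0.17. With quality weights it was 0.24, that of Tcf7 was 0.016 and the basal value of Axin2 was 0.049. Without the 2 libraries with most mitochondrial counts, the basal value of Axin2 was 0.032 and the luminal values were 0.080 for Lgr6, 0.54 for Rnf43 and 0.40 for Tcf7. Without each library in turn, the ranges were -0.11 to 0.074 for Axin2 in basal cells, -0.35 to 0.063 for Lgr6, -0.42 to 0.52 for Rnf43 and -1.12 to 0.38 for Tcf7 in luminal cells.

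Same-numbered libraries were not treated as pairs. Of 15 such pairs 4 had a correlation above 0.1 (range -0.07 to 0.16), and 8 of 11 libraries correlated best with their own number. With the replicate block, the FDR of the Axin2 difference between cell types was 0.0628, which missed the threshold, and that of Axin2 in luminal cells was 0.0262. Without a luminal duct library, the remaining library of that group is assumed to vary like the other groups. By counts not divided by length, Lgr4 held 56.7% and Lgr6 43.1% of the receptors in basal TEB, an order opposite to that per kb. Few counts limit the values of Rspo1, Rspo3 and Lef1, and 5 counts in all limit Axin2 in luminal duct.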
